A study of Homo sapiens with 62 samples.

Results

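Histones are the proteins around which DNA is wound, and the genes described here are those whose names follow the HGNC histone style (H1-, H2A, H2B, H3 and H4 with a cluster letter, a variant letter or a number). A gene was kept where it had a mean of at least 10 reads in the 4 h DMSO libraries of either cell line. Of 91 such histone names among the 29794 genes of the tables, 36 passed: 26 replication-dependent genes (called cluster genes here, since most lie in the histone gene clusters), 9 variant genes and the pseudogene H2BC19P. In AsPC-1 alone 25 genes reached the minimum, 17 of them cluster genes and 8 variants, whereas in T3M-4 all 36 did. Another 55 names fell under the minimum, 20 of them without a single read in those libraries, and 3 antisense or divergent transcripts were left out. The members nearest the minimum were H4C12 and H2AC15 with means of 11.5 and 11.25 reads in T3M-4, and the nearest names below it were H4C14 and H3C1 with 9.0 and 7.75 reads.

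The data are SLAM-seq libraries, in which cells take up the uridine analogue 4sU for 2 h before harvest, so that RNA made in that time yields reads with T>C conversions. All 62 libraries came from 2 human pancreatic cancer lines, AsPC-1 (classical subtype, 42 libraries) and T3M-4 (basal-like subtype, 20 libraries), in which endogenous KLF5 was knocked out with a guide RNA and replaced by a virally delivered KLF5 fused to FLAG and the FKBP12-F36V degron. The question was what degradation of KLF5, or inhibition of the ATPases RUVBL1 and RUVBL2, does to newly made RNA in each line. Every library carries this genotype, controls included, and the lines were drug-selected after infection and are not described as clones.

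KLF5 was degraded with dTAGv1 for 4 h (10 libraries in AsPC-1, 4 in T3M-4) and compared with the inactive analogue dTAG-NEG for 4 h (10 and 4). CB-6644, the RUVBL1/2 inhibitor, was given for 4 h (5 and 4) and in AsPC-1 also for 12 h (4), and was compared with the solvent DMSO at 4 h (5 and 4) and 12 h (4). NVP-2, an inhibitor of the transcription elongation kinase CDK9, was given for 4 h (4 and 4), so its comparison shares the 4 h DMSO libraries with that of CB-6644. Each AsPC-1 library held 82676553 to 200298262 reads, of which 2240998 to 18311982 had T>C conversions, and each T3M-4 library held 111132257 to 244524608, of which 3714015 to 27982537 had them. The share of all reads with T>C conversions (the labelled share) was 10.1% ± 0.624 (SD, n = 5) in AsPC-1 with DMSO for 4 h and 1.57% ± 0.239 (n = 4) with NVP-2. In T3M-4 it was 12.4% ± 1.56 (n = 4) and 2.24% ± 0.417 (n = 4).

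The basal markers and HNF4A separated the lines by their labels, and other markers did so less or not. In the 4 h DMSO libraries of AsPC-1, KRT8 and KRT18 averaged 2010 and 2500 CPM (reads of a gene per megaread of the library) of all reads, HNF4A 16.02 CPM, and the basal keratin KRT5 0.058 CPM. In T3M-4, KRT5 averaged 273 CPM, TP63 25.9 CPM and HNF4A 0.287 CPM. The classical markers ELF3 and GATA6 averaged 53.3 and 4.42 CPM in AsPC-1 and 29.4 and 1.98 CPM in T3M-4. Of the epithelial markers, KRT8, KRT18 and EPCAM averaged lower in T3M-4 (453, 474 and 37.2 CPM, with EPCAM at 254 CPM in AsPC-1). KRT19 and CDH1 averaged higher in T3M-4, 718 and 27.1 CPM against 568 and 15.6 CPM. The leukocyte gene PTPRC averaged 0.065 CPM in AsPC-1 and 0.013 CPM in T3M-4, while COL1A1, a fibroblast collagen, averaged 7.01 CPM in T3M-4 beside 0.018 CPM of COL1A2. AsPC-1 libraries fell into 2 sets by DCLK1, 17 libraries at 19.7 to 43.6 CPM and 25 at 0.302 to 1.55 CPM, and both sets occurred within groups. T3M-4 libraries came from 2 labelled batches, both present in every group. In AsPC-1 all NVP-2 libraries were labelled batch 2 and all 4 h DMSO libraries batch 1, so the comparison was also made with 2 sets of controls from batch 2, DMSO for 12 h and the NEG libraries of experiment 3, which differ from it in time or compound.

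Replication-dependent histone genes are transcribed in S phase, when new DNA has to be packed, and their mRNAs normally end in a conserved hairpin instead of a poly(A) tail. The hairpin is bound by SLBP, and the pre-mRNA is cut behind it by a complex that includes the U7 snRNP and the nuclease CPSF3. Variant genes such as those for H3.3 and H2A.Z are expressed throughout the cell cycle, usually contain introns and give ordinary polyadenylated mRNAs. The libraries here were primed with oligo(dT), which captures polyadenylated RNA. Reads of cluster genes therefore come from whatever part of their RNA that primer reached, and the level of their non-polyadenylated mRNA was not measured.

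The hairpin itself is printed here for the 6 cluster genes that the NVP-2 comparison in T3M-4 turns on and for the 2 variants that also hold one. Capitals mark the 16-base hairpin, a 6-base-pair stem around a 4-base loop, and 5 bases of flank follow on each side. Sequences are 5′ to 3′ on the strand of the gene, from the hg38 reference.
H1-2: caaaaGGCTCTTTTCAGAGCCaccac
H2AC6: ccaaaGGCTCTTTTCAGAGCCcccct
H2BC5: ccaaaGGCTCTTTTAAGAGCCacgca
H3C10: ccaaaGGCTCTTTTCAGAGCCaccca
H4C3: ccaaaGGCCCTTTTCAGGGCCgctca
H4C11: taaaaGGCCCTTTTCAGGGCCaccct
H2AX: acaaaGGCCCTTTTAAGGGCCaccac
H3-7: ctaaaGGCTCTTTTCAGAGCCactgc
The H1-2 stretch lies at chr6:26055739-26055764 on the minus strand. On the plus strand of the same chromosome, H4C3 lies at chr6:26104312-26104337, H2AC6 at chr6:26124664-26124689, H2BC5 at chr6:26158582-26158607, H3C10 at chr6:27810511-27810536 and H4C11 at chr6:27824454-27824479. The H2AX stretch is at chr11:119094893-119094918 and that of H3-7 at chr1:143905508-143905533, both on the minus strand. All 8 lie in the 3′UTR, downstream of the stop codon.

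A hairpin of this form within 150 bases after the stop codon was found in 25 of the 26 cluster members (96.154%), the exception being H3C6, and in 2 of the 9 variants. It was found in 41 of 44 cluster genes under the read minimum and in 96 of 19601 protein-coding genes (0.49%). In the 25 cluster members it began 23 to 58 bases after the stop codon. The annotated 3′UTR ended at most 18 bases beyond it in 14 of them, H4C3, H1-2 and H4C11 included. In the other 11, such as H2AC6, H2BC5, H3C10, H4C8 and H2BC4, the farthest annotated 3′UTR end lay 769 to 37155 bases beyond it. These are distances along the genome over all transcripts of a gene, with introns included, and not lengths of RNA. H2BC4, for example, has 6 annotated 3′UTR pieces. The 2 sets are called short-ended and long-ended cluster genes. H4C3's 3′UTR lies within the span of the annotated 3′UTR pieces of H2BC4 on the opposite strand, and the strand setting of the counting is not given in the sources used here. H4C3 had a mean of 39906 reads and H2BC4 of 361 in the 4 h DMSO libraries of T3M-4, so most reads of H4C3 were not also counted for H2BC4. H3C4 shares all 50-base words of its last 100 bases with an overlapping gene, and H4C11 shares 47.1% with H4C12. Among the variants H3-3A shares 47.9%, so its reads may include those of a near-identical copy.

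In unperturbed cells 1 cluster gene stood far above the rest. H4C3, which encodes histone H4, was read in the 4 h DMSO libraries at 186 ± 40.7 CPM of all reads (SD, n = 5) in AsPC-1 and 228 ± 126 CPM (n = 4) in T3M-4. The T3M-4 libraries split by batch, with 119 and 118 CPM in batch 1 and 328 and 345 CPM in batch 2. H1-2, a linker histone, followed at 1.73 ± 0.733 CPM in AsPC-1 and 21.2 ± 1.74 CPM in T3M-4. H2AC6 was at 0.943 ± 0.449 and 17.7 ± 2.22 CPM, H2BC5 at 0.783 ± 0.306 and 13.9 ± 5.01 CPM, and H4C8 at 0.275 ± 0.130 and 7.17 ± 0.806 CPM. In T3M-4 the other 21 cluster members averaged under 3 CPM each, among them H2AC25 at 2.45 ± 0.567, H2BC4 at 2.25 ± 0.718, H2AC8 at 2.12 ± 0.791 and H2AC14 at 2.05 ± 1.52 CPM. The pseudogene H2BC19P was at 0.0709 ± 0.0371 CPM in AsPC-1 and 0.153 ± 0.0519 CPM in T3M-4.

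**Figure D1:**
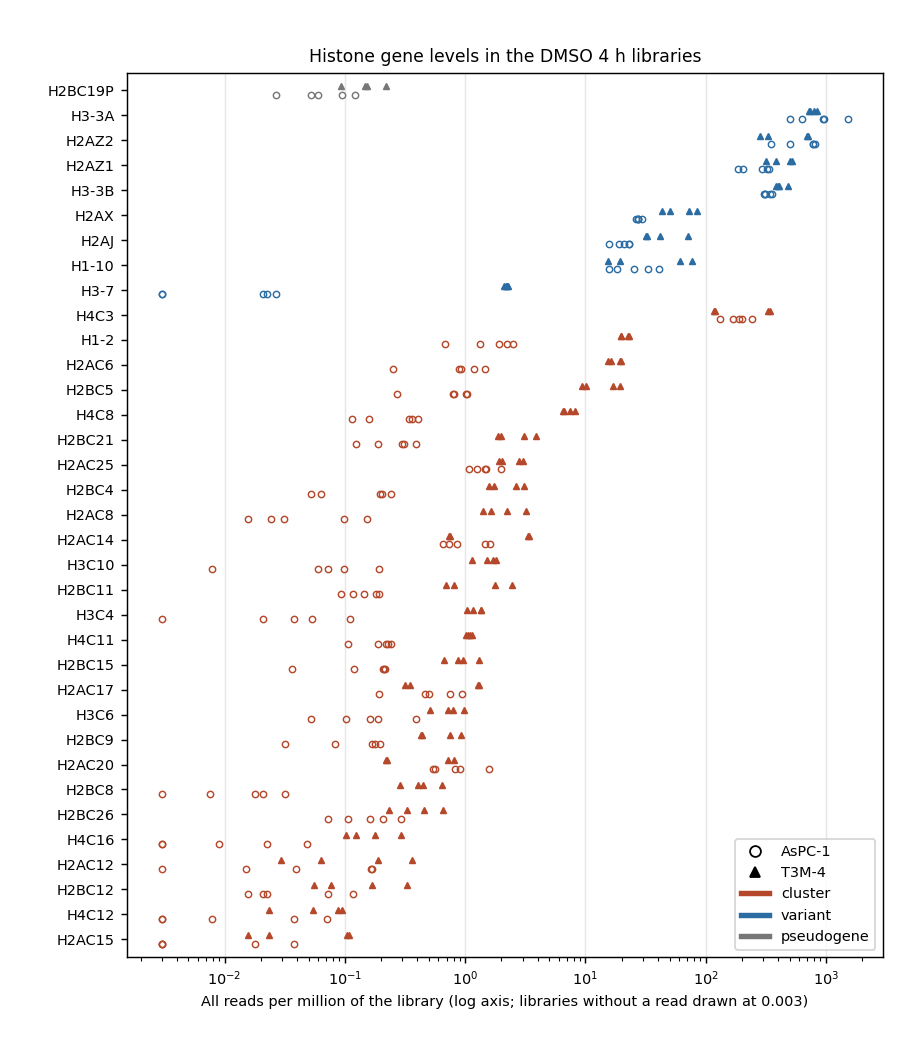
Level of 35 of the 36 histone genes in the 4 h DMSO libraries, in CPM of all reads on a log axis, 1 point per library (open circles AsPC-1, triangles T3M-4; libraries without a read are drawn at 0.003). H4C3 sits among the variants, and for most other cluster genes the T3M-4 triangles lie to the high side of the AsPC-1 circles.

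Most variants were read at higher levels. H3-3A and H3-3B, 2 genes for the replacement histone H3.3, were at 914 ± 400 and 325 ± 24.1 CPM in AsPC-1 and at 777 ± 59.3 and 419 ± 42.3 CPM in T3M-4. H2AZ2 and H2AZ1, which encode H2A.Z, were at 645 ± 208 and 269 ± 69.3 CPM in AsPC-1 and at 502 ± 229 and 430 ± 98.6 CPM in T3M-4. H2AX, whose product is phosphorylated at DNA breaks, was at 27.6 ± 1.21 and 62.8 ± 19.1 CPM, and H2AJ at 20.3 ± 3.05 and 44.4 ± 18.8 CPM. The linker histone gene H1-10 was at 26.7 ± 10.3 CPM in AsPC-1 and 43.2 ± 30.7 CPM in T3M-4. H3-7 was the exception, with 8 reads over the 5 AsPC-1 libraries and 2.19 ± 0.0818 CPM in T3M-4. The reads come from transcript ends and the CPM are not divided by length, so the order of the genes is an order of end reads.

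Among the cluster genes kept, most were higher in T3M-4 than in AsPC-1. With edgeR's quasi-likelihood test on all reads, 17 of 23 tested cluster genes were higher in T3M-4 and none lower, with a median log2 difference of 3.2. The read minimum leans this way: all 36 members reached it in T3M-4, against 17 of 26 cluster genes and 8 of 9 variants in AsPC-1. No gene was kept through AsPC-1 alone, so the counts and medians of this comparison are no test of the class. H4C8, H2AC6, H2BC5, H1-2 and H4C3, given below, reached it in both lines. Of the 9 variants 4 were higher (H2AJ by 1.03, H2AX by 1.09, H2AZ1 by 0.58 and H3-7 by 7.07) and 1 was lower, with a median of 0.58. With the T3M-4 libraries of batch 1 alone, the batch of the AsPC-1 libraries, H2AX was higher by 0.65, H2AZ1 was at 0.25 (adjusted p = 0.433), and among cluster genes H2BC9 (1.61, adjusted p = 0.0696) and H4C16 (2.71, adjusted p = 0.0660) lost their calls. Over all 15464 genes tested 30.5% were higher in T3M-4 and 25.2% lower, with a median of 0.09. Among the cluster genes H4C8 was higher by 4.61 (SE 0.38), H2AC6 by 4.15 (SE 0.39), H2BC5 by 4.07 (SE 0.39) and H1-2 by 3.53 (SE 0.32). H4C3, the highest of them, differed by 0.18 (SE 0.35, adjusted p = 0.677). Of 11 long-ended cluster genes 10 were higher in T3M-4 (median 3.37), and of 11 short-ended ones 6 were (median 2.18).

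The labelled share, the percent of a gene's reads with T>C conversions, depends on how much of its RNA was made during labelling and on how many uridines a read can show. Over the 4 h DMSO libraries of AsPC-1 the median share of the cluster genes was 10.7% ± 3.39 (SD over libraries, n = 5), that of the variants 11.5% ± 1.24 and that of all genes 15.2% ± 1.46. In T3M-4 the medians were 16.6% ± 2.997, 14.3% ± 5.98 and 17.5% ± 3.11 (n = 4). The ranges of cluster genes and variants over libraries overlapped in both lines, and both classes averaged below the median of all genes. In T3M-4 the variant median was 18.6 and 20.2% in the 2 libraries of batch 1 and 8.09 and 10.4% in the 2 of batch 2, while the cluster medians spread from 13.4 to 19.2% with both batches at either end. When reads were summed over genes, which lets the highest genes set the value, the shares were 12.6% ± 1.65 for cluster genes and 8.44% ± 1.02 for variants in AsPC-1, and 20.04% ± 1.51 and 10.0% ± 1.60 in T3M-4. All genes summed were at 10.1% ± 0.624 in AsPC-1 and 12.4% ± 1.56 in T3M-4. By that sum cluster genes averaged above all genes and variants below.

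**Figure D2:**
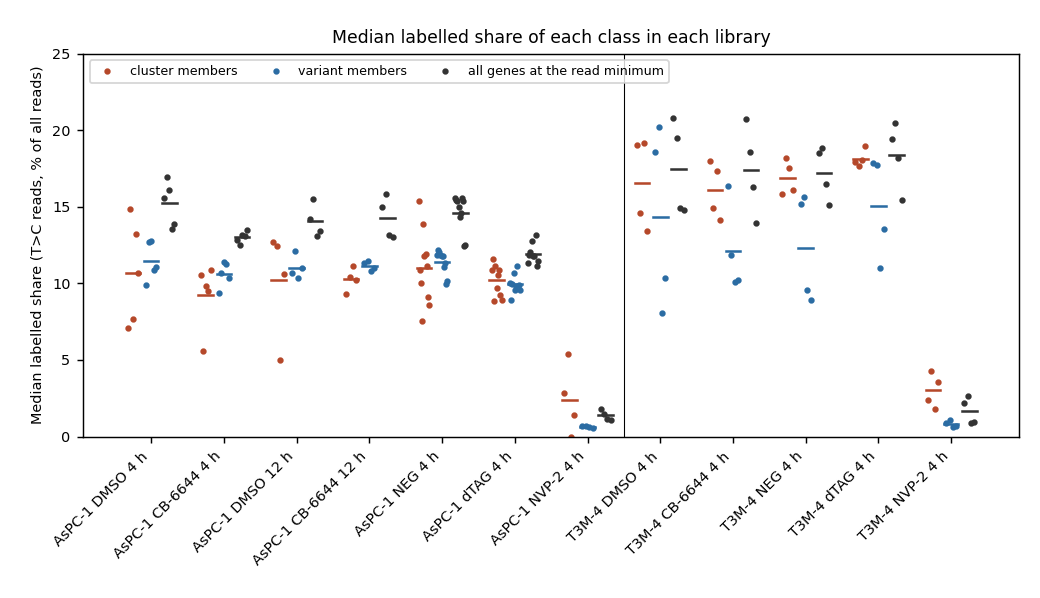
Median labelled share (percent of a gene's reads with T>C conversions) of cluster genes, variants and all genes in each library of the 12 groups, with a bar at each group's mean. The NVP-2 groups lie near the bottom in both lines, with cluster genes above all genes and variants below them on average. In AsPC-1 the median of all genes was also lower with CB-6644 for 4 h, where every library lay below every DMSO library. It was lower on average with dTAG than with NEG there, with overlap. CB-6644 for 12 h and the dTAG and CB-6644 groups of T3M-4 overlapped their controls.

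Single genes spread far more than the class medians. Among the variants with many reads, H3-3A had the lowest share in AsPC-1, 3.83% ± 0.268, beside 15.7% ± 0.643 for H3-3B, which encodes the same protein, and 23.9% ± 2.79 for H2AX. In T3M-4 the same 3 genes were at 7.34% ± 0.616, 18.1% ± 2.58 and 16.8% ± 4.08. H2AJ stood at 4.15% ± 0.972 and 5.38% ± 0.768. Of the cluster genes H4C3 was at 12.7% ± 1.68 in AsPC-1 and 23.3% ± 2.44 in T3M-4, with no overlap between the lines. H1-2 was at 5.02% ± 0.597 in T3M-4, and H2AC6 and H2BC5 at 13.7% ± 4.14 and 14.2% ± 1.32. The highest mean shares belonged to genes with few reads, H2BC15 in AsPC-1 at 40.9% ± 27.6 and H4C16 in T3M-4 at 45.5% ± 26.8, and the lowest to H2BC4 in AsPC-1 at 3.47% ± 5.91, among genes that reached the read minimum there, and to H4C12 in T3M-4 at 1.56% ± 3.13. In AsPC-1, 5 cluster members and the variant H3-7 had no T>C read in any 4 h DMSO library, at a mean of 0.0641 CPM of all reads or less. H3C6, the cluster gene without a hairpin, was at 42.2% ± 17.9 in T3M-4 and 31.0% ± 14.5 in AsPC-1.

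Between the lines the share of 25 members could be tested, with edgeR on T>C reads offset by all reads of the same gene and library. H3-3A was higher in T3M-4 by 0.94 on the log2 scale (SE 0.0994, adjusted p = 0.000306) and H4C3 by 0.88 (SE 0.12, adjusted p = 0.00153), while H2AZ2 was lower by 0.53 (SE 0.0948, adjusted p = 0.00563). Over the 13384 genes tested 11.4% were higher in T3M-4 and 1.23% lower. The medians were 0.61 for cluster genes, 0.16 for variants and 0.25 for all genes.

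After CDK9 inhibition in T3M-4, T>C reads of 25 members were tested, 16 cluster genes and 9 variants. Of the cluster genes 6 were higher and 1 lower, and of the variants 1 was higher and 2 lower. Over all 12242 genes 12.4% were higher and 14.2% lower. The median log2 change was 1.26 in cluster genes, with 12 of 16 above 0, -0.88 in variants, with 3 of 9 above 0, and -0.12 over all genes. Summed over genes, cluster members held 0.0528% ± 0.0269 of the T>C reads of a library with DMSO and 0.113% ± 0.0502 with NVP-2 (SD, n = 4 each), and variants 0.183% ± 0.0232 and 0.210% ± 0.0770. Libraries of the 2 groups overlapped in both sums. These changes are relative to the other T>C reads of the library. Scaled instead by all reads of the library, the median of all genes was -2.97, that of cluster genes -1.71 and that of variants -3.88, and 16 of the 25 members were lower. Over all genes 10526 of 12242 were called with that scaling.

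H4C3 had 225 and 199 CPM of T>C reads in the DMSO libraries of batch 1 and 614 and 732 in those of batch 2. With NVP-2 it had 574 and 529 in batch 1 and 1516 and 1254 in batch 2. Within each batch both NVP-2 libraries lay above both DMSO libraries, although the groups overlapped across batches. The log2 change was 1.79 (SE 0.59, adjusted p = 0.0446), and it was 1.77 in batch 1 alone (adjusted p = 0.00995) and 1.83 in batch 2 alone (adjusted p = 0.00939). The fitted change is larger than the ratio of the mean CPM, since the test also scales libraries by TMM factors. The call was lost when 1 of 5 libraries was left out (NVP-2 2.1 or 2.2, or DMSO 1.1, 1.2 or 2.1), and scaled by all reads the change was -1.19.

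H1-2 had 7.62, 7.51, 10.3 and 9.17 CPM of T>C reads with DMSO and 21.8, 53.0, 44.9 and 33.1 with NVP-2. The groups did not overlap, and the log2 change was 2.73 (SE 0.40, adjusted p = 0.00108), against -0.15 scaled by all reads. H2BC5, a gene for histone H2B, had 18.2, 18.2, 11.2 and 14.4 CPM with DMSO and 55.0, 50.4, 33.3 and 57.4 with NVP-2. Its groups did not overlap either, and it rose by 2.23 (SE 0.32, adjusted p = 0.000968), against -0.68 scaled by all reads. H3C10, a gene for histone H3, had 2.83, 3.46, 2.86 and 1.11 CPM with DMSO and 6.08, 4.82, 11.3 and 11.9 with NVP-2. All 4 NVP-2 libraries were above all DMSO libraries, with a log2 change of 2.41 (SE 0.61, adjusted p = 0.0150), against -0.67 scaled by all reads. It was 1.18 in batch 1 alone (adjusted p = 0.146) and 3.34 in batch 2 alone (adjusted p = 0.0446), and 2.30 with the replicate number as a block (adjusted p = 0.0579).

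The other 2 calls among cluster genes were H2AC6 and H4C11. H2AC6, a gene for histone H2A, had 25.7, 23.7, 14.6 and 14.6 CPM with DMSO and 19.8, 31.3, 24.5 and 36.1 with NVP-2. Its change was 1.12 (SE 0.37, adjusted p = 0.0455), -1.85 scaled by all reads, 0.44 in batch 1 alone (adjusted p = 0.366) and 1.84 in batch 2 alone (adjusted p = 0.0432). The call held in 5 of 16 alternative settings, and it was lost without any 1 of the libraries other than NVP-2 1.1, with no filter on low counts and with the replicate block. H4C11 had 0.750, 0.176, 1.70 and 0.975 CPM with DMSO and 1.77, 2.01, 1.59 and 17.8 with NVP-2, so that 1 library set the group apart. Its change of 3.34 (SE 1.06, adjusted p = 0.0392) lost its call without that library, NVP-2 2.2, and in each batch alone (2.38, adjusted p = 0.110, and 3.63, adjusted p = 0.113), and was 0.39 scaled by all reads. Of 6 tested short-ended cluster genes 3 were higher (median 1.90), as were 3 of 9 long-ended ones (median 0.48). H2AC14 had 0.292, 0.822, 5.44 and 7.05 CPM with DMSO and 3.04, 5.42, 13.2 and 12.9 with NVP-2, and did not pass the test (log2 change 2.00, adjusted p = 0.156). H4C8, with 7.58, 7.87, 7.15 and 6.42 CPM before and 5.32, 3.21, 3.63 and 1.62 after, did not pass it either (-0.53).

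H3C6 was the cluster gene that fell. It had 3.79, 0.939, 2.09 and 3.46 CPM of T>C reads with DMSO and 0.253, 0.201, 0 and 0 with NVP-2. Over the libraries 223 of its 498 reads were labelled with DMSO and 2 of 267 with NVP-2, a ratio of the shares of 0.0167 (exact 95% interval 0.00203 to 0.0604, covering counting error only). The call in T>C reads was lost in each batch alone, with values of -2.95 and -7.99.

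Among the variants in T3M-4, H2AZ2 went the way of the cluster genes. It had 170, 140, 406 and 403 CPM of T>C reads with DMSO and 408, 1705, 1820 and 1631 with NVP-2. All NVP-2 libraries were above all DMSO libraries, the lowest by little, and the log2 change was 2.94 (SE 0.59, adjusted p = 0.00499), against 0.05 scaled by all reads. H3-3B had 700, 586, 576 and 582 CPM with DMSO and 209, 228, 221 and 184 with NVP-2, and fell by 0.95 (SE 0.24, adjusted p = 0.0136). Every NVP-2 library lay below every DMSO library, and in batch 2 alone the change was -0.72 (adjusted p = 0.0522).

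The remaining 6 variants did not pass the test in T3M-4. H3-3A had 373, 392, 577 and 534 CPM with DMSO and 85.4, 159, 203 and 180 with NVP-2, groups that did not overlap, with a log2 change of -0.95 (adjusted p = 0.0878). H2AX had 62.1, 77.7, 103 and 85.9 CPM and 68.9, 49.0, 121 and 133 CPM, which overlap (0.84, adjusted p = 0.176). The log2 change was -0.88 for H1-10, 0.19 for H2AZ1, -0.46 for H2AJ and -1.17 for H3-7.

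In AsPC-1, 13 members had enough T>C reads to be tested for NVP-2, 5 cluster genes and 8 variants. No cluster gene passed edgeR's test, although all 5 changes were above 0 with a median of 1.09 and 1 had an unadjusted p under 0.05. DESeq2, with its own filter and scaling, called 2 members higher and 4 lower of 30, beside 4452 of all 16910 genes. By edgeR 3 variants were lower. Over all 11498 genes 12.9% were higher and 17.6% lower, and the medians were -0.64 for variants, with 1 of 8 above 0, and -0.05 for all genes. Scaled by all reads the medians were -1.83 for cluster genes, -3.64 for variants and -3.04 for all genes, and 10 of the 13 members were lower. Over all genes 10651 of 11498 were called with that scaling.

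H1-10 had 14.6, 48.2, 27.9, 52.2 and 43.0 CPM of T>C reads with DMSO in AsPC-1 and then, with NVP-2, 2.27, 8.33, 4.81 and 8.03 CPM, and fell by 2.16 (SE 0.47, adjusted p = 0.00519). H3-3B had 462, 565, 496, 520 and 502 CPM and then 204, 284, 164 and 146 CPM, and fell by 0.81 (SE 0.22, adjusted p = 0.0169). Neither of these 2 genes had overlapping groups. Against the batch 2 controls H1-10 was at -2.49 (DMSO for 12 h) and -2.35 (NEG), and H3-3B at -0.74 (adjusted p = 0.0671) and -0.78 (adjusted p = 0.0355).

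The largest change among the cluster genes of AsPC-1 was that of H2BC5, which had 0.705, 1.34, 0.197, 2.70 and 0.948 CPM with DMSO and 4.27, 4.86, 0 and 9.37 with NVP-2 (log2 change 2.48, SE 0.93, adjusted p = 0.0617). One NVP-2 library held no T>C read of it and the other 3 were above every DMSO library. H4C3 had 220, 189, 210, 240 and 300 CPM and then 320, 489, 125 and 88.4 CPM, 2 libraries above and 2 below all DMSO libraries (0.68, adjusted p = 0.249). The 2 above, NVP-2 1.1 and 1.2, were of the low DCLK1 set, and the 2 below, NVP-2 2.1 and 2.2, of the high set. Of these DMSO libraries only 1.3 was of the high set. H1-2, H2AC14 and H2AC25 changed by 1.09, 1.26 and 0.50 without passing the test. H2AZ2 had 288, 729, 472, 812 and 858 CPM and then 510, 1025, 1038 and 552 CPM, which overlap (0.82, SE 0.33, adjusted p = 0.0815). The log2 change was -0.74 for H2AX, -0.54 for H2AZ1, -0.14 for H2AJ and -0.08 for H3-3A.

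**Figure D3:**
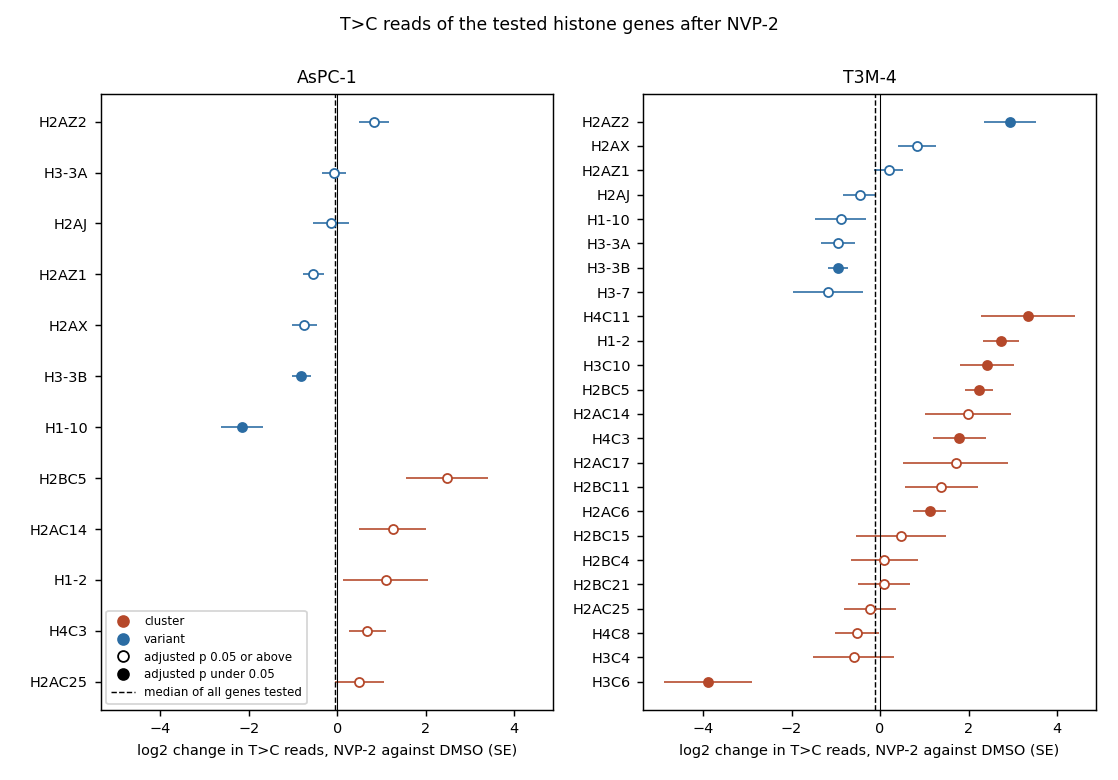
Log2 change in T>C reads with NVP-2 against DMSO at 4 h for the tested histone genes reported here in both lines, with its standard error. Filled symbols have an adjusted p under 0.05 and the dashed line marks the median of all genes. In T3M-4 7 genes are filled above 0 and 2 below, and in AsPC-1 2 variants are filled below 0.

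The labelled share, which does not depend on how libraries are scaled to one another, passed the test for a fall with NVP-2 in every variant and in a smaller part of the cluster genes. In AsPC-1 8 of 8 variants and 4 of 16 cluster genes were lower, beside 88.9% of all 13567 genes. In T3M-4 9 of 9 variants and 12 of 25 cluster genes were lower, beside 81.6% of all 15166 genes. Cluster genes have fewer reads than variants, and a test on fewer reads makes fewer calls, so sizes were also compared. The fitted change was above 0 in 2 of the 16 cluster genes in AsPC-1 and in 0 of the 25 in T3M-4. The median log2 change was -1.29 in cluster genes, -3.65 in variants and -3.03 in all genes in AsPC-1, and -1.80, -3.62 and -2.98 in T3M-4. A change smaller in size than the median of all genes was seen in 14 of 16 cluster genes and 1 of 8 variants in AsPC-1, and in 19 of 25 and 2 of 9 in T3M-4.

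H4C3, with the most reads of the cluster genes, went from 12.7% ± 1.68 to 3.6% ± 1.01 in AsPC-1 (log2 change -1.81, SE 0.21, adjusted p = 3.06e-06). Against the batch 2 controls, a choice made after seeing the data, its change in AsPC-1 was -1.69 (DMSO for 12 h) and -1.63 (NEG), 13 members were lower with either, and the median of all genes was -2.95 and -2.93. Over all genes 11859 of 13874 and 11962 of 13830 were lower. In T3M-4 H4C3 went from 23.3% ± 2.44 to 8.6% ± 1.197 (-1.44, SE 0.20, adjusted p = 7.22e-05). H3-3B, a variant with more reads than H4C3 in both lines, went from 15.7% ± 0.643 to 1.17% ± 0.337 in AsPC-1 (-3.75). In T3M-4 its share with NVP-2 was 1.48% ± 0.300, after 18.1% ± 2.58 with DMSO (-3.62). The share fell in both genes and both lines, and the change was smaller in size in H4C3. This depends on the variant chosen, since H2AZ2, given below, changed by less than H4C3 in T3M-4 and by more in AsPC-1. H1-2 was at 5.02% ± 0.597 and 3.71% ± 1.01 in T3M-4 (-0.43, adjusted p = 0.255). H2BC5 was at 14.2% ± 1.32 and 8.82% ± 2.75 (-0.69, adjusted p = 0.0726), and H3C10 at 20.01% ± 6.52 and 9.27% ± 0.924 (-1.11, adjusted p = 0.0566). These 3 genes, together with H2AC14 (-0.03), H2BC9 (-0.13) and H4C11 (-0.34), did not pass the test in T3M-4, which does not show that their shares stayed the same.

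Other cluster genes of T3M-4 fell further. H4C8 went from 12.6% ± 1.44 to 1.21% ± 0.501, a log2 change of -3.36. The log2 change in share was -2.98 for H2AC25, -3.25 for H3C4, -2.57 for H2BC4, -2.5 for H2BC21, -1.97 for H2AC6 and -1.8 for H2BC11. For H2BC26 it was -3.1, a call that 7 of 12 alternative settings lost, with values from -5.94 to -2.19. In batch 2 alone the calls of H3C4, H2BC4 and H2BC21 were lost, and in batch 1 alone that of H2BC11. H4C16 had 43 of 118 reads labelled with DMSO and 0 of 43 with NVP-2, which allows a share of up to 6.98%, and H2AC12 had 1 of 45 with NVP-2, a ratio of the shares of 0.0650 (exact 95% interval 0.00165 to 0.362). The call of H4C16 was lost in batch 2 alone and that of H2AC12 in 4 of 9 alternative settings. Short-ended genes had a median of -1.23, with 3 of 13 lower, and long-ended genes -2.50, with 8 of 11 lower; with genes at 0 set to their limit these medians were -1.21 and -2.38. In AsPC-1 the 2 sets had medians of -1.35 (1 of 7 lower) and -1.22 (3 of 9 lower), so the order seen in T3M-4 did not recur there. The AsPC-1 cluster genes that were lower were H4C3, H2AC25 (-1.90), H2BC11 with 0 of 71 reads labelled after 17 of 80 (up to 4.23%) and H2BC26 with 0 of 60 after 17 of 93 (up to 5.0%).

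Among the variants the share of H1-10 fell with log2 changes of -5.03 in AsPC-1 and -4.53 in T3M-4. For H2AJ, H2AX, H2AZ1 and H3-3A the log2 changes were -4.32, -3.56, -3.54 and -3.37 in AsPC-1 and -3.49, -2.58, -3.25 and -4.1 in T3M-4. H3-7, tested in T3M-4 alone, fell by 3.81. H2AZ2 fell least in both lines. It went from 9.61% ± 0.596 to 2.35% ± 0.680 in AsPC-1 (-2.03, SE 0.21). In T3M-4 it was at 6.67% ± 0.426 with DMSO and 4.27% ± 1.65 with NVP-2 (-0.64, adjusted p = 0.0392), a call that 8 of 12 alternative settings lost.

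**Figure D4:**
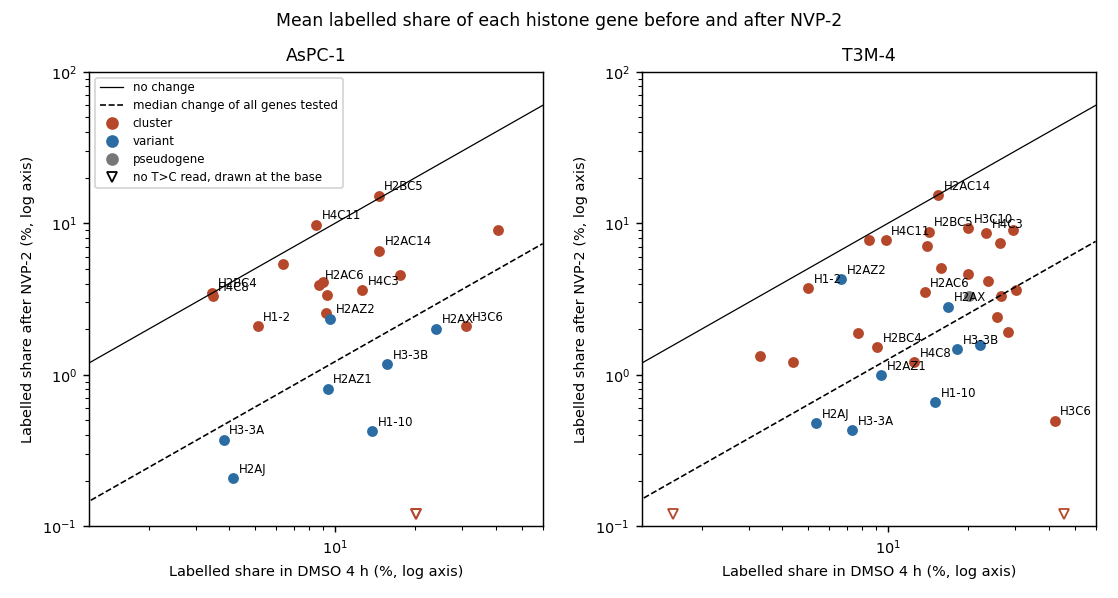
Mean labelled share of the histone genes reported here with DMSO (x axis) and with NVP-2 (y axis) at 4 h in each line, in percent on log axes. The solid line marks no change and the dashed line the median change of all genes, and triangles mark genes with no T>C read with NVP-2. Most cluster genes lie between the lines, and most variants lie on or below the dashed one.

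In all reads few histone genes changed in 4 h of NVP-2. In AsPC-1 1 of 27 tested members changed, H2AJ, with 21.1, 22.8, 15.8, 23.1 and 18.9 CPM with DMSO and 24.4, 51.5, 32.8 and 58.7 CPM with NVP-2. The NVP-2 libraries were all above the DMSO libraries, and H2AJ rose by 1.25 (SE 0.24, adjusted p = 0.00836), while 3.43% of all 14095 genes were higher. In T3M-4 edgeR called 0 of 35 members, and 5.16% of all 15653 genes changed. An unadjusted p under 0.05 was found there for 0 members and for 2541 genes in all. H4C3 had 126, 170, 329 and 367 CPM of all reads with NVP-2 in T3M-4, close to its DMSO values batch by batch.

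The difference in T>C response to NVP-2 between the lines was tested as an interaction term. Of 26 members 0 were called by edgeR, beside 0.851% of all 13159 genes. An unadjusted p under 0.05 was found for 4 members and for 1811 genes in all. The fitted difference, T3M-4 minus AsPC-1, was 2.09 on the log2 scale for H2AZ2 (adjusted p = 0.162) and 1.56 for H2AX (adjusted p = 0.169). For dTAG 0 of 28 members and 0.0426% of 14088 genes differed between the lines, and for CB-6644 at 4 h 0 of 29 members and 0% of 13963 genes. At an unadjusted p under 0.05 there were 1 and 3 members, and 824 and 511 genes in all.

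After KLF5 degradation no change of histone genes in T>C reads was detected. In AsPC-1 DESeq2 called 0 members, and edgeR called 0 of 13 tested members, beside 2.4% of all 11696 genes. By edgeR 2 members and 1413 genes in all had an unadjusted p under 0.05. In T3M-4 it called 0 of 28, with 0 at an unadjusted p under 0.05, beside 0.834% of 13424 genes, and DESeq2 called 0. The cluster and variant medians were 0.25 and 0.03 in AsPC-1 and -0.02 and -0.12 in T3M-4, with 0.03 and 0.01 for all genes.

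The highest cluster gene had much the same range in both arms. T>C reads of H4C3 lay between 78.3 and 256 CPM in the 10 NEG libraries of AsPC-1, with a median of 183, and between 55.8 and 318 CPM in the 10 dTAG libraries, with a median of 192. In T3M-4 it had 312, 439, 644 and 566 CPM with NEG and 193, 284, 380 and 761 CPM with dTAG, which overlap. The 2 members at an unadjusted p under 0.05 in AsPC-1 were variants. H3-3B had a median of 511 CPM with NEG (451 to 563) and 428 CPM with dTAG (384 to 519), a log2 change of -0.19 (SE 0.0818, adjusted p = 0.337). H2AX had 66.3 CPM (34.3 to 87.1) and 70.3 CPM (66.5 to 89.7), a change of 0.26 (SE 0.122, adjusted p = 0.393).

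All reads gave no call either, with 0 of 27 members in AsPC-1 and 0 of 34 in T3M-4 by edgeR, beside 0.797% and 0.0191% of all genes. An unadjusted p under 0.05 was found for 0 and 0 members, and for 1056 and 533 genes in all. The labelled share was lower for 31.8% of all 13975 genes in AsPC-1 with dTAG, with a median change of -0.26. Of 27 members 2 were lower, H3-3B with a log2 change of -0.32 (SE 0.0583, adjusted p = 0.000682) and H1-10 with -0.26 (SE 0.0764, adjusted p = 0.0165). In T3M-4 0 of 34 members and 0.214% of 15399 genes changed in share, with 0 members and 986 genes in all at an unadjusted p under 0.05.

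RUVBL1/2 inhibition gave a like picture. In T>C reads edgeR called 0 of 13 members and 0% of 11649 genes at 4 h in AsPC-1, 0 of 12 members and 0% of 12204 genes at 12 h, and 0 of 29 members and 0% of 13444 genes in T3M-4. At an unadjusted p under 0.05 there were 0, 1 and 0 members and 482, 473 and 569 genes in all, and DESeq2 called 0 members, with 1, 26 and 7 genes over the whole tables. The cluster and variant medians were -0.23 and 0.09, 0.74 and 0.03, and -0.08 and 0.12, with all genes at -0.01, -0.01 and 0.00. The cluster median at 12 h rests on 4 genes. Its highest was H2BC26, a gene for histone H2B, with 0.182, 0.363, 0.201 and 0.0565 CPM with DMSO and 0.819, 0.907, 1.503 and 0.871 with CB-6644, groups that did not overlap (log2 change 2.26, SE 0.68, adjusted p = 0.998).

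H4C3 had 255, 137, 176, 191 and 218 CPM of T>C reads with CB-6644 for 4 h in AsPC-1, which overlaps its DMSO values, and 197, 195, 643 and 653 CPM in T3M-4, close to DMSO in both batches. At 12 h in AsPC-1 it had 396, 208, 103 and 99.2 CPM with DMSO and 214, 255, 68.2 and 50.7 with CB-6644. The spread within each 12 h group was larger than the difference between them. In both 12 h groups replicates 1 and 2 were of the low DCLK1 set and replicates 3 and 4 of the high set. Values of the low set overlapped, and in the high set both CB-6644 libraries lay below both DMSO libraries. In all reads edgeR called 0 of 28, 29 and 35 members in the 3 comparisons, beside 0%, 0% and 0.0127% of all genes. An unadjusted p under 0.05 was found for 0, 1 and 0 members, and for 267, 325 and 453 genes in all. In the labelled share 1 of 25 members was lower at 4 h in AsPC-1, H3-3B with a log2 change of -0.35 (SE 0.0717, adjusted p = 0.0247), where 2.24% of all 13709 genes were lower and the median of all genes was -0.22. At 12 h 0 of 28 members and 0% of 14184 genes changed in share, and in T3M-4 0 of 35 and 0% of 15404. With an unadjusted p under 0.05 there were 1 and 0 members, and 687 and 440 genes in all.

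**Figure D5:**
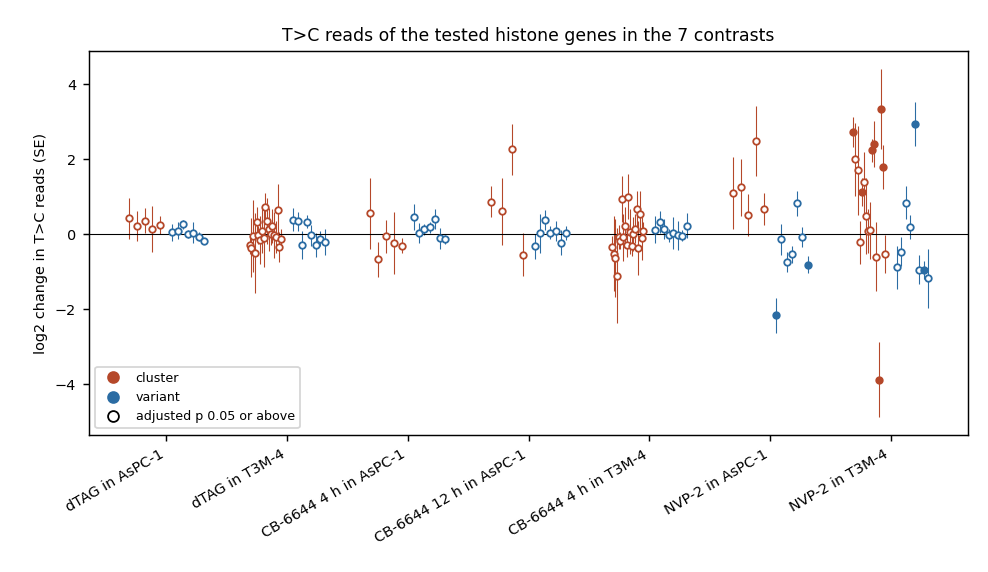
Log2 change in T>C reads, with its standard error, of the tested histone genes reported here in the 7 comparisons of treatment with control. Points of the dTAG and CB-6644 comparisons scatter around 0 with none called, and those of NVP-2 spread to both sides, cluster genes mostly above 0 and variants mostly below.

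The genes that make, cut and package histones were read from lists. Under dTAG and CB-6644 none of the tested genes of 4 lists (17 genes of histone mRNA transcription and processing, 30 histone chaperones and exchange factors, 30 S-phase genes and 7 other histone genes) was called in T>C reads by edgeR in either line. With NVP-2, where 12.9% of all genes were higher and 17.6% lower in AsPC-1 and 12.4% and 14.2% in T3M-4, the processing list had 1 gene higher and 7 lower of 17 in AsPC-1 (median -0.67) and 1 higher and 5 lower in T3M-4 (median -0.61). SLBP, the hairpin-binding protein, fell in both lines, with log2 changes of -1.53 (SE 0.296) in AsPC-1 and -2.05 (SE 0.312) in T3M-4. So did LSM11, a part of the U7 snRNP, with -1.56 and -2.09, NPAT, the coactivator of histone gene transcription, with -2.25 and -2.53, and CSTF2T, a subunit of the cleavage stimulation factor, with -2.2 and -2.42. CPSF3, the nuclease, rose by 1.48 in AsPC-1 (SE 0.275, adjusted p = 0.00215) and was at 0.76 in T3M-4 (adjusted p = 0.263), and it was at -1.53 in AsPC-1 scaled by all reads.

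Of 29 tested chaperone genes 2 were higher and 6 lower in AsPC-1 (median -0.09), and 3 higher and 4 lower in T3M-4 (median 0.10). HJURP, the chaperone of CENP-A, fell in both lines, with log2 changes of -2.22 and -0.97, the latter -1.49 in batch 1 alone and -0.46 in batch 2 alone (adjusted p = 0.270). DAXX, which deposits H3.3, was at -2.44 in AsPC-1 (adjusted p = 0.000732) and at -1.39 in T3M-4 (adjusted p = 0.107). NAP1L1, a chaperone of H2A and H2B, rose by 1.4 and 1.16, and scaled by all reads was at -1.56 and -1.8. CHAF1A and CHAF1B, 2 subunits of the replication-coupled assembly factor CAF-1, went opposite ways in T3M-4, by -2.11 (adjusted p = 0.0226) and 1.64 (adjusted p = 0.0258), with CHAF1B at -1.37 scaled by all reads. Of 30 S-phase genes 6 were higher and 11 lower in AsPC-1 (median -0.52), and 5 higher and 8 lower in T3M-4 (median -0.20). RRM2, a subunit of ribonucleotide reductase, fell with log2 changes of -1.82 and -1.55, and CDC6, which loads the replicative helicase, with -1.51 and -2.06. CDC45, a part of that helicase, rose by 1.92 and 2.0, and was at -1.15 and -0.98 scaled by all reads. CENPA, the centromeric H3, was the 1 call among 3 tested other histone genes in T3M-4 (1.58, adjusted p = 0.0440, -1.47 scaled by all reads), and none of 3 was called in AsPC-1. The T3M-4 calls of HJURP, LSM11, NAP1L1, CENPA, CHAF1A and CHAF1B were each lost under 5 to 9 of 16 alternative settings, among them those without DMSO 1.2, 2.1 or 2.2. In labelled share every tested gene of the 4 lists was lower with NVP-2 in both lines, where 88.9% (AsPC-1) and 81.6% (T3M-4) of all genes were lower.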

How the data were processed

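SLAM-seq reads were counted by the authors over the hg38 3′UTR exons of GENCODE v44, with slamdunk at its defaults, and summed per gene. The deposited values are raw counts of T>C reads and of all reads, with no normalization. Libraries without 4sU and spike-ins were not used here, so T>C reads not due to labelling were not subtracted. In 1 column, all reads of AsPC-1 dTAG 3.1, the values repeat the T>C counts of another library (AsPC-1 DMSO 12 h, replicate 2). It was not used, so all-reads and share results for that group rest on 9 libraries. Counts of H1-10 and H2AZ1 are multiples of 2, so a read can be counted more than once.

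Counts were tested with edgeR 4.0.16 in R 4.3.3 (filterByExpr, TMM factors, quasi-likelihood fit), with Benjamini-Hochberg adjustment over all genes and a threshold of 0.05. Only the groups of each comparison entered its fit. The labelled share was tested on T>C counts with the log of all reads plus 0.5 as offset, for genes with a mean of at least 10 reads in each group. DESeq2 1.42.0, the replicate number as a block, scaling by all reads, single batches, other controls, a minimum of 50 reads for shares and each library left out were alternatives. The fits were tested on simulated data with 200 changed genes and no batches or culture sets. A change of most genes at once, as in labelled share with NVP-2, was not simulated. Limits and intervals cover counting error only, with 3 reads as the limit of a count of 0.

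Samples of equal replicate number had correlated deviations from the group means in every pair (over 0.1) in 4 comparisons. These were dTAG in both lines (r from 0.275 to 0.65 in AsPC-1 and 0.354 to 0.609 in T3M-4), CB-6644 at 12 h (0.233 to 0.754) and CB-6644 in T3M-4 (0.242 to 0.52). In the same order 5 of 10, 4 of 4, 2 of 4 and 1 of 4 pairs correlated best with their own number. Outside dTAG in T3M-4 the number is thus not shown to mark pairs. Libraries that share a batch may come from one experiment, and p-values then measure only the spread between libraries. In bulk samples fewer cells with an RNA and less of it per cell cannot be told apart.

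Named were every variant, the 12 cluster genes with the highest level, up to 6 called cluster genes and up to 4 called genes of a list in each direction, and the genes with the highest and lowest share. Other genes, named because a count or the read minimum singled them out, were chosen after their values were seen. Values of some single genes are not reported here, though counts and medians over a class or list include them. Members, lists and rules were chosen with earlier results of these data known. Hairpins were found in the reference by a search for the stem and loop.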

Additional observations from a re-analysis of the deposited data

Results flagged for a closer look

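Each of 123 sets of 4 or 5 libraries (T>C CPM or labelled share of a named gene in the NVP-2 comparisons) was checked for a library far from the others by Dixon's ratio, the gap to the nearest library over the whole range, and 12 were picked out. Chance picks out about 1 in 20. In AsPC-1 with DMSO for 4 h, the share of H2AZ2 in library 1.1 was 8.55%, with the next at 9.77% (ratio 0.857). In the same library H3C6 had 2.12 CPM of T>C reads, with the next at 0.495 CPM (0.803), and the highest share (0.779). In AsPC-1 with NVP-2, H2AJ had its lowest share in library 2.2 (0.955), H4C11 its highest in library 1.1 (0.882), and the T>C reads of H3C6 were all in library 1.2, at 0.347 CPM (1.0).

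In T3M-4 with DMSO for 4 h, H3-3B in library 1.1 had 700 CPM, with the next at 586 CPM (0.917). With NVP-2, H2AZ2 in library 1.1 had 408 CPM, with the next at 1631 CPM (0.867), and library 1.2 had the highest shares of H3-3A, 0.567% with the next at 0.389% (0.942), and of H3-3B, 1.92% with the next at 1.39% (0.834). H4C11 in library 2.2 had 17.8 CPM, with the next at 2.01 CPM (0.974), and the highest share (0.881). This is the library on which the call of H4C11 rests.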

How the results depend on the processing

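Of 311 counts of called members under alternatives 290 stayed within 1.5 times the value given and 21 did not. Of 1247 values of called genes 1092 kept direction and call, 136 kept direction without the call and 19 reversed, all under scaling of T>C reads by all reads. With that scaling the NVP-2 changes were, in AsPC-1, -2.28 for ATRX, -1.15 for CDC45, -1.53 for CPSF3, -1.35 for MCM5, -1.56 for NAP1L1 and -1.88 for POLA1. In T3M-4 they were -0.98 for CDC45, -1.47 for CENPA, -1.37 for CHAF1B, -1.42 for GINS1, -0.15 for H1-2, -1.85 for H2AC6, -0.68 for H2BC5, -0.67 for H3C10, -1.19 for H4C3, -1.20 for MCM2, -1.80 for NAP1L1, -1.62 for POU2F1 and -1.31 for RBBP7. Members called in T>C reads became 10 in AsPC-1 and 16 in T3M-4 with NVP-2 and 1 (H3-3B) with dTAG in AsPC-1. Over all genes that scaling called 10651 of 11498, 10526 of 12242 and 1171 of 11761. The cause was not tested beyond the scaling itself. For NVP-2 in AsPC-1 DESeq2 called 6 members and the batch 2 NEG libraries as control gave 5, beside 4452 of 16910 and 3180 of 11209 genes. Class shares were compared apart from these counts. Summed reads moved them by 1 SD or more for variants in AsPC-1 (8.44%) and cluster genes in T3M-4 (20.04%). T3M-4 batch 1 alone gave 5 members that differed in share from AsPC-1, beside 2340 of 13321 genes. A block for DCLK1 set and experiment, chosen after seeing the data, gave 5 members lower in share with dTAG in AsPC-1, beside 5442 of 13975 genes. With the replicate block the T>C calls of H1-10 and H3-3B with NVP-2 held in AsPC-1. In T3M-4 those of H2AC6, H3C6, H3C10 and H4C11 were lost, and those of H1-2, H2AZ2, H2BC5, H3-3B and H4C3 held. In all reads NVP-2 with the block gave 0 members in AsPC-1 and 1 (H2AZ1) in T3M-4, and in share 10 and 20. Over all genes the block called 988 of 14106 and 2626 of 15653 in all reads, and 11246 of 13577 and 11878 of 15166 in share. CB-6644 at 4 h gave 0 members in share in AsPC-1 with it, beside 151 of 13709 genes. In these comparisons not every pair correlated above 0.1 (lowest r -0.084 for NVP-2 in AsPC-1, 0.079 in T3M-4 and -0.055 for CB-6644 at 4 h). The block moved the count of all genes called with dTAG from 281 to 867 (AsPC-1) and from 112 to 298 (T3M-4), and that of members from 0 to 0. With each library left out in turn, members called with NVP-2 in T>C reads ranged from 2 to 5 for AsPC-1 (5 without NVP-2 2.1) and from 6 to 10 for T3M-4 (6 without DMSO 1.1 or 2.1). Over all genes 3517 of 11901 were called without NVP-2 2.1, and 2240 of 11301 and 2262 of 11379 without DMSO 1.1 and 2.1. In share the members ranged from 12 to 15 and from 19 to 20, with 1 to 1 in all reads in AsPC-1. The counts over all genes ranged from 11758 to 12013 and from 11328 to 12335 in share, and from 837 to 2063 in all reads in AsPC-1. With dTAG in AsPC-1 the range in share was 2 to 5 (4 without dTAG 3.2 or NEG 3.3, 5 without NEG 3.4), and with CB-6644 at 4 h 0 to 1 (0 without CB-6644 1.2, 1.3 or 2.1, or DMSO 1.1 or 1.2). Without dTAG 3.2, NEG 3.3 and NEG 3.4 the share calls over all genes were 4944 of 13867, 5126 of 13977 and 5108 of 13964. In the CB-6644 fits with 0 members 88 to 131 genes were called. All other ranges of members were 0 to 0. Cluster genes other than H4C3 had few reads in AsPC-1, where only 5 of the 26 could be tested in T>C reads.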
